A study of Mus musculus with 9 samples.

Results

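Alpha motor neurons (MNs) are the cholinergic neurons of the ventral horn whose axons drive the force-producing fibers of skeletal muscle. They were taken here as the nuclei that the deposited annotation placed in skeletal MN cluster S2, which were 1285 of 16042 cholinergic nuclei and of 34231 annotated nuclei. Of the 1285, 1283 were also typed as alpha MNs in a second column of the annotation, and 2 were not. The question was which genes differed in these nuclei between cord levels that serve the limbs and the thoracic level.

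Nuclei came from mice aged 8 weeks of the strain Chat-IRES-Cre::CAG-Sun1-sfGFP, carrying 1 copy each of the Cre and the reporter, in all groups. Chat drives Cre in cholinergic cells, the reporter then marks the nuclear envelope with GFP, and sorted GFP+ nuclei were barcoded in droplets, so the sort itself selected for cells with present or past *Chat* expression. There were 3 pools of 4 mice, 12 mice in all: replicate 1 held 2 males and 2 females, replicate 2 held 4 males and replicate 3 held 4 females. Each pool gave 1 cervical, 1 thoracic and 1 lumbar/sacral library, and the 6 cervical and lumbar/sacral libraries (called limb libraries below) were set against the 3 thoracic libraries. The limb libraries hold all alpha MNs of those regions, so neck, diaphragm, trunk and pelvic MNs are among them, and sex cannot be told apart from the pool.

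MNs are arranged along the cord in columns. The lateral motor column, found at limb levels, supplies limb muscles, the medial column runs the whole length of the cord and supplies the muscles along the spine, and the hypaxial column of the thoracic cord supplies body wall muscles. During development Hox genes set the level of the columns, and limb MNs are further divided into pools, each tied to 1 muscle, through transcription factors, adhesion molecules and guidance receptors.

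Depth differed between libraries. Alpha MN nuclei numbered 395, 71 and 163 in cervical replicates 1, 2 and 3, 159, 58 and 242 in the lumbar/sacral replicates, and 92, 79 and 26 in the thoracic replicates. The deposited values were taken to be corrected counts, that is, molecule counts adjusted by the authors for the depth of each nucleus, and they were summed over the alpha MN nuclei of a library and scaled to a total of 1000000 (CPM). Median corrected totals per nucleus ran from 4998 in lumbar/sacral replicate 1 to 14251 in cervical replicate 2. One corrected count was worth 0.346 CPM in cervical replicate 1 and 4.40 CPM in thoracic replicate 3, so a value of 0 in the latter allows up to 13.2 CPM (3 corrected counts, counting error only).

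Markers of alpha MNs were present in all libraries, but their sum was lower in the library labelled cervical replicate 2 and in lumbar/sacral replicate 2. In these the 4 markers summed to 501 and 539 CPM, against 752 to 1459 CPM in the others. *Stk32a*, a kinase gene used as an alpha MN marker, was at 421, 101 and 382 CPM in the cervical replicates, 417, 172 and 463 CPM in the lumbar/sacral replicates and 545, 274 and 392 CPM in the thoracic replicates. In gamma MN nuclei (S3) it was at 4.30 to 18.5 CPM. *Sv2b*, a synaptic vesicle protein of alpha MNs, was at 422, 187 and 303 CPM, 340, 172 and 349 CPM, and 419, 273 and 326 CPM in the same order. *Rbfox3*, which encodes NeuN, ranged from 107 to 333 CPM, and *Glis3*, a zinc finger transcription factor, from 12.8 to 315 CPM, with the library labelled cervical replicate 2 lowest for *Glis3*.

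**Figure D1:**
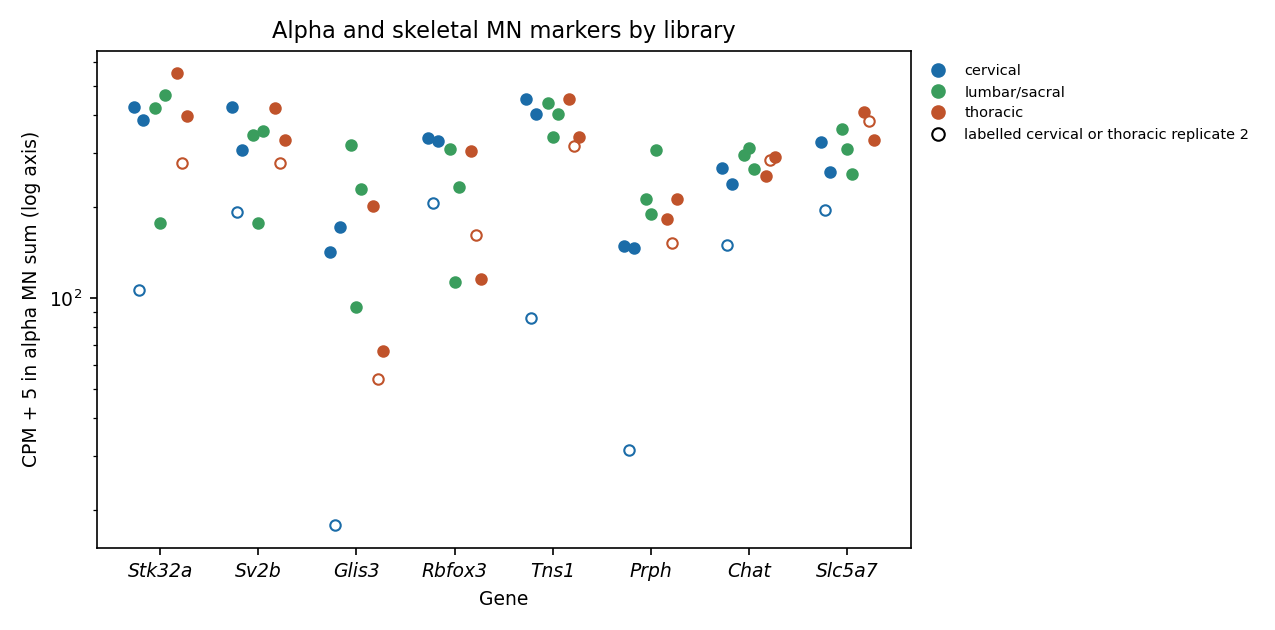
CPM + 5 (log axis) of 4 alpha MN markers (Stk32a to Rbfox3) and 4 skeletal MN or cholinergic markers (Tns1 to Slc5a7) in the alpha MN sum of each library, 1 point a library. The library labelled cervical replicate 2 (open blue) is the lowest of the 9 for all but Sv2b and Rbfox3 and is at 80.5 CPM for Tns1, where the others are at 311 to 450 CPM.

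The library labelled cervical replicate 2 was also low for the general skeletal MN marker *Tns1*, a focal adhesion protein, with 80.5 CPM against 311 to 450 CPM in the other 8. A corrected count of *Tns1* was found in 19 of its 71 alpha MN nuclei (26.8%, or 19.7% when every nucleus was thinned to 4000 corrected counts), while the other 8 libraries had 83.6% to 97.8% (70.7% to 82.5% thinned). Its gamma MN and Type 3 MN nuclei both had *Tns1* in 100% (67.2% and 67.6% thinned). *Stk32a* was found in 33.8% of its alpha MN nuclei (28.2% thinned) and in 48.3% of those of lumbar/sacral replicate 2 (32.8% thinned), compared with 2.02% to 12.9% in gamma and Type 3 MN nuclei over all libraries, which should lack it. Thus 52 of the 71 nuclei had no corrected count of *Tns1*. Other markers were mixed, and only thinned shares are compared. *Prph*, an intermediate filament of MNs, was found in 8.45% of the 71 nuclei (others 43.1% to 70.7%), *Glis3* in 4.23% (others 11.4% to 58.0%), and *Chat*, the enzyme that makes acetylcholine, in 43.7% (others 53.8% to 79.0%), all below the other libraries. *Rbfox3* (59.2%, others 26.9% to 68.7%) and *Sv2b* (46.5%, others 43.1% to 81.3%) were within the range of the others.

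Low values in that library also need care, by a measure chosen after the data were seen. In its alpha MN nuclei 1347 genes had a corrected count in at least 90% of nuclei with a mean below 2.5, while the other 8 alpha MN sums had 23 to 110 such genes, and the same library's Type 3 and gamma MNs had 142 and 99. *Zeb2*, a transcription factor and marker of visceral MNs, was at exactly 1 corrected count in 49 of the 71 nuclei and at 2 or more in 17, which gave 133 CPM against 0 to 9.35 CPM elsewhere. *Fbn2*, a fibrillin used as a visceral MN marker, was at exactly 1 in 55 of them, *Necab1* in 48, *Hs3st4* in 49 and *Hoxc5* in 46. Single corrected counts thus stood in most of these nuclei, although nuclei at 2 or more gave the larger part of *Zeb2* and *Hoxc5*, and its unthinned shares of nuclei with a gene are not read as expression. Across genes, which are not independent replicates, its log2 CPM values correlated with those of the other libraries at r = 0.718 to 0.824, and the other 8 correlated with each other at 0.786 (thoracic replicate 3 with cervical replicate 3) to 0.981, so the ranges overlapped.

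The region labels of 2 libraries went against *Hoxc5*. This Hox gene of the neck and upper trunk (chr15:102967443-103017429, + strand, mm10) was at 17.7 and 15.1 CPM in cervical replicates 1 and 3 but at 102 CPM in the library labelled cervical replicate 2. It was at 103 and 92.4 CPM in thoracic replicates 1 and 3 but at 10.6 CPM in the library labelled thoracic replicate 2. By this gene each of the 2 sat with the other region. The values were alike in gamma MNs (69.9 and 10.9 CPM) and Type 3 MNs (68.8 and 7.30 CPM) of these libraries, so the doubt does not rest on the alpha MN nuclei alone. After thinning, *Hoxc4*, another Hox gene, was found in 19.0%, 28.2% and 19.0% of alpha MN nuclei in the cervical replicates. In the thoracic replicates it was found in 40.2%, 10.1% and 15.4%. The 2 libraries were thus the highest cervical and the lowest thoracic one, but thoracic replicate 3 also lay below the cervical replicates. *Hoxa7*, a Hox gene of the trunk, did not show the pattern of *Hoxc5* in alpha MNs. It was at 13.9, 14.7 and 8.46 CPM in the cervical and 15.3, 21.2 and 26.4 CPM in the thoracic replicates. In gamma MNs it was at 7.22, 30.1 and 7.82 CPM and at 19.3, 15.3 and 32.3 CPM, where the library labelled cervical replicate 2 was with the thoracic ones. The one labelled thoracic replicate 2 lay between cervical replicates 1 and 3 and the other thoracic ones. The labels were kept as given. The comparison was run with all 9 libraries and with the 7 left without these 2 (5 limb, among them lumbar/sacral replicate 2, and 2 thoracic). Some gene values below are given for 1 of these comparisons only.

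A further difference ran through the libraries of both groups. Genes typed as antisense in the annotation took 1.10%, 1.40% and 1.11% of the corrected counts of alpha MNs in the cervical replicates, 1.19%, 2.25% and 3.79% in the lumbar/sacral replicates and 1.12%, 2.02% and 4.03% in the thoracic replicates. Within the microglia list, for which 3 of 4 genes were in the matrix, *P2ry12* was the most abundant and moved with the same libraries, from 3.81 CPM in thoracic replicate 1 to 66.0 CPM in lumbar/sacral replicate 3 and 110 CPM in thoracic replicate 3. *Csf1r*, a growth factor receptor of microglia, was at 0 in 5 libraries. The part of these differences in the results was not tested except through the added fits named below.

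Genes of other cells were mostly low. The 5 oligodendrocyte genes summed to 52.0 to 149 CPM per library, most of it from *Mbp* (30.4 to 138 CPM), while *Mog* and *Mag* were each at 0 in 5 or more of the 9 libraries. The 4 astrocyte genes summed to 16.7 to 39.6 CPM, led by *Slc1a2*, with *Gfap* at 0 in 6 libraries. The 4 inhibitory neuron genes summed to 14.2 to 37.3 CPM, with *Slc6a5* the most abundant in the library labelled cervical replicate 2. The 2 endothelial genes in the matrix summed to 1.96 to 9.54 CPM, mostly *Pecam1*, and the 1 excitatory neuron gene, *Slc17a6*, to 0 to 20.6 CPM. The 3 visceral MN genes summed to 257 CPM in the library labelled cervical replicate 2 and to 0 to 53.9 CPM in the others, and the 4 cholinergic interneuron genes to 188 CPM there and 4.77 to 66.8 CPM elsewhere. *Zeb2* and *Mpped2* led these lists there. The interneuron genes also differed with the groups compared, with sums of 14.2 to 188 CPM in limb and 4.77, 5.30 and 8.80 CPM in thoracic libraries. *Mpped2* and *Pax2* were higher in limb libraries without overlap, and *Mpped2* also with the 7 libraries described below (all genes 0.626% with 9 and 3.52% with 7). All thoracic sums of this list lie below the 10 CPM that a gene had to reach in 3 sums to be tested. Both genes thus passed that filter through their limb values alone, and their lack of overlap is not read as support. Gamma MN genes, which alpha MNs also hold, summed to 1016 to 1888 CPM, led by *Esrrg*, and the 2 Type 3 MN genes to 108 to 348 CPM. The 348 CPM was that of lumbar/sacral replicate 2, whose sum of alpha MN markers was low. By thinned shares, its alpha MN nuclei held the Type 3 gene *Gpr149* in 56.9% (others 7.98% to 46.5%). They held *Rreb1*, the other Type 3 gene, in 39.7% (others 5.63% to 38.0%). Both Type 3 genes were lower in limb libraries in both comparisons (median log2 fold changes -0.52 and -0.55), *Rreb1* without overlap with 7. Of the gamma genes 3 were lower and 1 higher in both, *Esrrg* lower without overlap (all genes 1.47% with 9 and 4.78% with 7). The part of other cells in the results was not tested. Among alpha MN nuclei, 4 carried a cell barcode that another library's alpha MN nuclei also held, and 66 of the 16042 cholinergic nuclei did so over all types. No doublet caller was run here.

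With all 9 libraries, no gene was called. Limma on log2(CPM + 5) tested 10387 genes, and 0 (0%) passed an adjusted p of 0.05, with 251 at an unadjusted p under 0.05, 157 of them higher and 94 lower in limb libraries. The lowest adjusted p was 0.963. The median log2 fold change over all genes tested was -0.12, which became 0.00 when libraries were scaled by the median of ratios. All limb libraries lay above all thoracic libraries for 65 genes (0.626%) and below them for 153 (1.47%). The library labelled cervical replicate 2 was the highest limb library for 39 of the 65 and the lowest for 113 of the 153.

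Leading the higher genes were *Necab1*, *Hs3st4*, *Adarb2*, *Grik1*, *Hs6st3* and *Negr1*, the 6 with the lowest p. *Necab1* (chr4:14952245-15149794, - strand), a neuronal calcium-binding protein, was at 13.9 to 70.7 CPM in limb libraries with a median of 23.5, and at 0.953, 1.32 and 0 CPM in the thoracic replicates. Every limb library was above every thoracic one, but the thoracic values stand for 1, 1 and 0 corrected counts, and the floor of 13.2 CPM in the smallest library reaches almost to the lowest limb value. The log2 fold change was 2.49 ± 0.45 (SE), limma adjusted p = 0.963, and 2.31 ± 0.41 with 7 libraries (adjusted p = 0.389). The top limb value was that of the library labelled cervical replicate 2, where 48 of 71 nuclei held exactly 1 count.

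A pair of heparan sulfate sulfotransferases was among them. *Hs3st4* was at 28.4 to 84.1 CPM in limb libraries (median 39.6) and at 12.4, 6.62 and 4.40 CPM in the thoracic ones, a log2 fold change of 2.04 ± 0.39. *Hs6st3*, which was far more abundant, was at 448 to 878 CPM (median 767) and at 369, 437 and 251 CPM, a log2 fold change of 1.02 ± 0.23. For both genes the groups did not overlap, though for *Hs6st3* the gap was 448 against 437 CPM.

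*Grik1*, a kainate receptor subunit, was at 35.5 to 290 CPM in limb libraries (median 66.7) and at 15.3, 17.2 and 4.40 CPM in thoracic ones. Without the library labelled cervical replicate 2, the highest, limb values ended at 105 CPM and still lay above the thoracic ones. Its log2 fold change was 2.38 ± 0.53 with 9 libraries and 2.25 ± 0.41 with 7. *Negr1*, a cell adhesion molecule of neurites (chr3:156561794-157316445, + strand), was at 198 to 771 CPM (median 358) against 136, 188 and 79.2 CPM. Limb lay above thoracic throughout, by 198 against 188 CPM at the closest, and the log2 fold change was 1.55 ± 0.35. *Adarb2*, a brain protein of the RNA-editing deaminase family, was at 175 to 394 CPM (median 275) against 113, 135 and 39.6 CPM, a log2 fold change of 1.59 ± 0.34. These 5 genes had limma adjusted p values of 0.963 (*Hs3st4*) and 0.994 (the others).

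**Figure D2:**
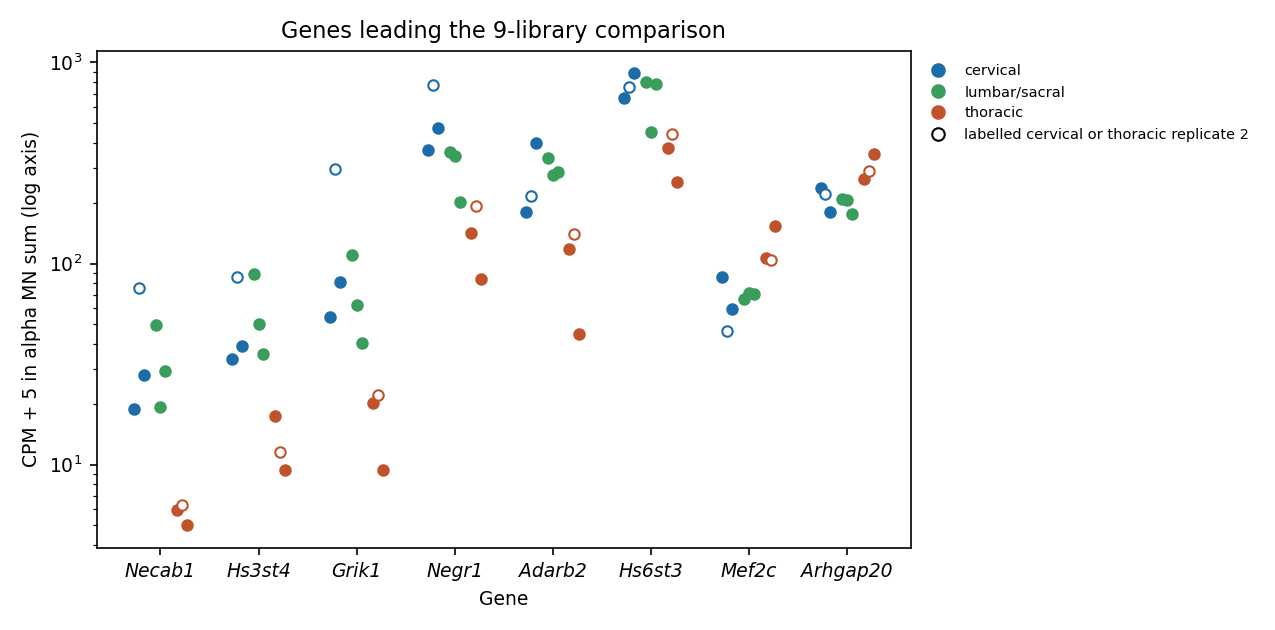
CPM + 5 (log axis) of 6 genes that led the higher and 2 that led the lower side of the comparison of 9 libraries, 1 point a library. Limb libraries (blue, green) lie above all thoracic ones (orange) for the 6 genes at left and below them for Mef2c and Arhgap20, and no gene passed the adjusted test.

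On the lower side the leading genes were *Mef2c*, *Arhgap20*, *Gm13912*, *Npr3*, *AC129186.1* and *Sox5*. *Mef2c*, an activity-regulated transcription factor, was at 41.2 to 81.1 CPM in limb libraries (median 63.9) and at 101, 99.3 and 150 CPM in the thoracic ones. The groups did not overlap, and the log2 fold change was -0.86 ± 0.23 (limma adjusted p = 0.994). *Arhgap20* was at 171 to 233 CPM (median 204) against 259, 285 and 348 CPM, and *Gm13912*, a long noncoding RNA, at 70.7 to 150 CPM (median 120) against 188, 185 and 189 CPM. Both had all limb libraries below all thoracic ones. Their log2 fold changes were -0.55 ± 0.16 and -0.70 ± 0.21.

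*Npr3*, the natriuretic peptide clearance receptor, was at 20.5 to 57.2 CPM (median 28.7) against 79.1, 47.7 and 88.0 CPM. *Sox5*, a transcription factor with a role in neuronal development, was at 66.0 to 114 CPM (median 85.8) against 263, 110 and 141 CPM. In both, the library labelled thoracic replicate 2 was within the limb range, and the fold changes were -1.08 ± 0.32 and -0.86 ± 0.28. *AC129186.1*, whose name was not matched in the annotation, was at 70.1 to 112 CPM (median 96.4) against 113, 148 and 189 CPM, a log2 fold change of -0.66 ± 0.21.

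Without the libraries labelled cervical replicate 2 and thoracic replicate 2, limma again called 0 of 10079 genes (0%), with 382 at an unadjusted p under 0.05 (252 higher, 130 lower) and a lowest adjusted p of 0.214. The median log2 fold change of all genes was -0.02. Groups of 5 and 2 libraries lie apart by chance more often than groups of 6 and 3, and 355 genes (3.52%) had all limb libraries above both thoracic ones and 482 (4.78%) had them below. The filter asks for 3 sums, so a gene present only in the 2 thoracic libraries could not be tested while one present only in limb libraries could, and the balance of higher and lower genes depends on it. Without the filter 0 of 19772 genes were called. An added fit, chosen after the data were seen, took the antisense share as a covariate and called 4 genes, all higher: *Atp2b4* (log2 fold change 2.22), *Negr1* (1.41) and *Grik1* (2.00), each with limma adjusted p = 0.0292, and *Ntm* (1.52, adjusted p = 0.0327). *Atp2b4* passed the filter through its limb values alone, so its call is not read as support. Thoracic replicate 3 held 1 corrected count each of *Atp2b4* and *Grik1*. None of the other fits called a gene in this comparison.

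*Atp2b4* (chr1:133699457-133801041, - strand), a plasma membrane calcium pump, had the lowest p. It was at 30.5 and 34.4 CPM in cervical replicates 1 and 3, at 60.5, 54.9 and 38.3 CPM in the lumbar/sacral replicates, and at 5.72 and 4.40 CPM in thoracic replicates 1 and 3. Both thoracic values lie below the 10 CPM of the filter. The 4.40 CPM stands for 1 corrected count in a library where a value of 0 allows up to 13.2 CPM. The lowest limb library was above both thoracic ones, and the log2 fold change was 2.24 ± 0.29 (unadjusted p = 2.12e-05, limma adjusted p = 0.214). The library labelled cervical replicate 2 was at 7.85 CPM and the one labelled thoracic replicate 2 at 10.6 CPM, so with 9 libraries the groups overlapped and the fold change was 1.71 ± 0.47 (adjusted p = 0.994).

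*Cadps2*, a factor for dense core vesicle release, was at 14.9 and 24.8 CPM in the cervical, 39.4, 40.5 and 16.3 CPM in the lumbar/sacral and 0.953 and 0 CPM in the thoracic libraries. *Piezo2*, a mechanically gated channel, was at 13.2 and 33.2 CPM, 23.7, 21.5 and 12.1 CPM, and 0.953 and 0 CPM in the same order. For both genes limb lay above thoracic, but the thoracic values stand for 1 and 0 corrected counts, and the 13.2 CPM that thoracic replicate 3 allows reaches into the limb range of *Piezo2*. The library labelled thoracic replicate 2 had 29.1 CPM of *Cadps2* in 16 of 79 nuclei, within the limb range, and 14.6 CPM of *Piezo2* that all came from 1 nucleus, and the one labelled cervical replicate 2 had 20.6 and 0 CPM. The log2 fold changes were 2.47 ± 0.40 and 2.17 ± 0.39 with 7 libraries and 1.55 ± 0.56 and 1.17 ± 0.62 with 9.

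*Rasgrf2*, a calcium-regulated exchange factor for Ras, was at 41.6 and 52.6 CPM, 48.6, 54.9 and 26.2 CPM, and 8.58 and 13.2 CPM in cervical, lumbar/sacral and thoracic libraries. *Ntm*, a neuronal adhesion molecule of the same family as *Negr1*, was at 133 and 209 CPM, 201, 124 and 96.5 CPM, and 49.6 and 35.2 CPM. Neither overlapped between groups. The log2 fold changes were 1.63 ± 0.29 and 1.69 ± 0.30, both at limma adjusted p = 0.389. The library labelled thoracic replicate 2 was at 39.7 CPM of *Rasgrf2* and 113 CPM of *Ntm*, both within the limb range. For *Ntm* the library labelled cervical replicate 2 was at 685 CPM, over 3 times any other.

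Lower in limb libraries, *Eya4* (chr10:23102963-23350786, - strand), a transcriptional coactivator and phosphatase, was at 97.3 and 89.4 CPM in the cervical, 117, 93.0 and 92.9 CPM in the lumbar/sacral and 198 and 189 CPM in the thoracic libraries. The limb values lay close together and below both thoracic values. The log2 fold change was -0.96 ± 0.17 (limma adjusted p = 0.389). With 9 libraries the library labelled cervical replicate 2 was the lowest, the one labelled thoracic replicate 2, at 95.4 CPM, was among the limb values, and the fold change was -0.78 ± 0.28.

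*Plch1*, a phospholipase C, was at 236 to 259 CPM in the 5 limb libraries and at 395 and 400 CPM in the 2 thoracic ones, a log2 fold change of -0.68 ± 0.15. *Frem3*, an extracellular matrix protein, was at 9.54 to 19.7 CPM against 36.2 and 44.0 CPM, and *Rpa1*, a single-stranded DNA-binding protein, at 9.54 to 18.4 CPM against 34.3 and 35.2 CPM. For these 3 genes the groups did not overlap with 9 libraries either. *Mef2c* and *Npr3* were again among the 6 leading lower genes, at -0.86 ± 0.21 and -1.28 ± 0.34.

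**Figure D3:**
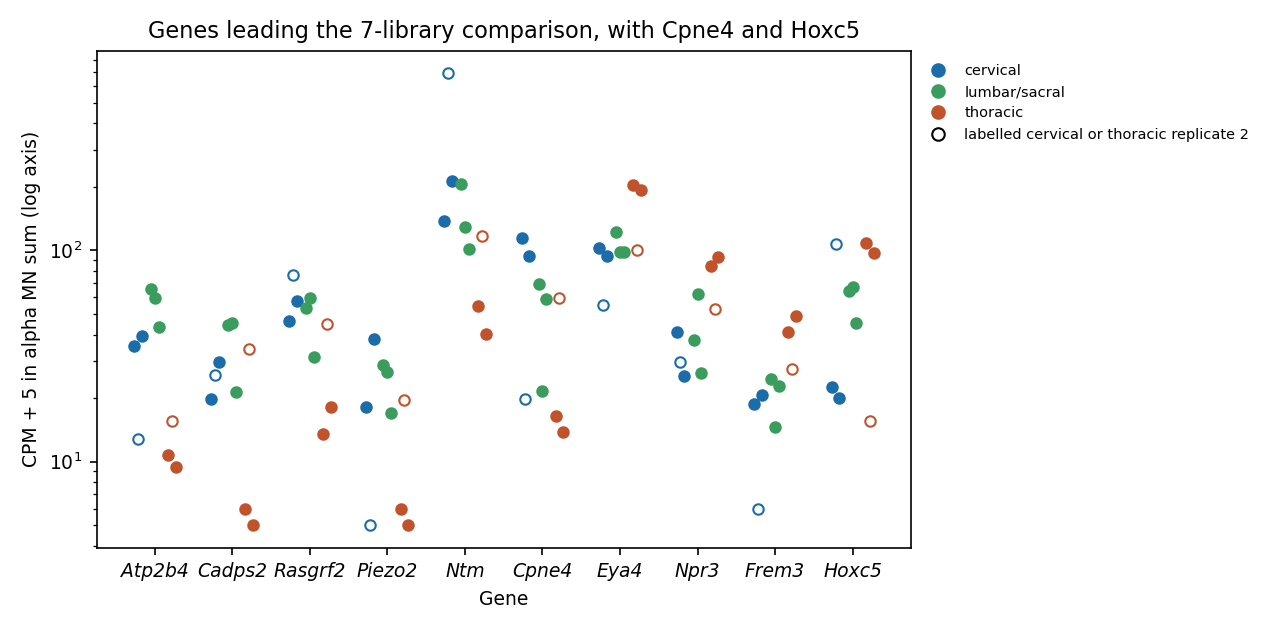
CPM + 5 (log axis) of 8 genes that led the comparison of 7 libraries, with Cpne4 and Hoxc5, in all 9 libraries. Without the open points, limb libraries lie above both thoracic ones for the 6 genes at left and below them for Eya4, Npr3 and Frem3; Hoxc5 is shown because it decided which points are open.

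**Figure D4:**
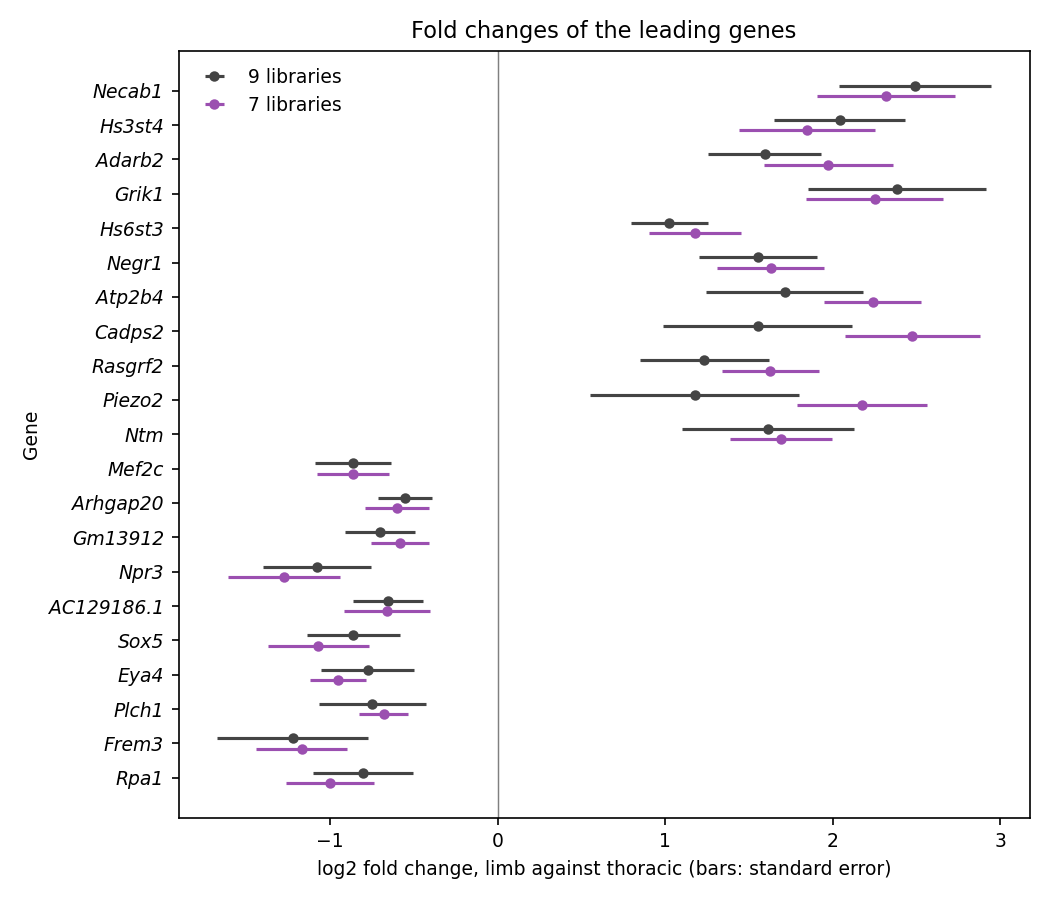
Log2 fold changes on the log2(CPM + 5) scale, limb against thoracic, of the genes that led either comparison, with 9 libraries (grey) and 7 libraries (purple). Bars show the standard error from limma, and the 7 libraries are part of the 9, so the 2 points of a gene share samples.

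Promoter entries of 3 of these genes are shown because the genes led the comparison of 7 libraries or its added fit, with *Eya4* from the thoracic side. They are 300 bases each, 5′ to 3′, from RefSeq (GRCm38.p6), and for *Eya4* the first of 2 entries is given. Atp2b4 lies at chr1:133753698-133753997 (- strand), Negr1 at chr3:156561544-156561843 (+ strand) and Eya4 at chr10:23349894-23350193 (- strand). The Atp2b4 and Eya4 windows lie inside the spans of the genes given above, Atp2b4 far inside, so neither is at the outermost start. Capitals mark TAAT or its reverse complement ATTA, the core letters bound by many homeodomain proteins, and TGATNNAT or its reverse complement ATNNATCA, letters known from PBX and Hox dimers. The motifs can overlap each other.
Atp2b4: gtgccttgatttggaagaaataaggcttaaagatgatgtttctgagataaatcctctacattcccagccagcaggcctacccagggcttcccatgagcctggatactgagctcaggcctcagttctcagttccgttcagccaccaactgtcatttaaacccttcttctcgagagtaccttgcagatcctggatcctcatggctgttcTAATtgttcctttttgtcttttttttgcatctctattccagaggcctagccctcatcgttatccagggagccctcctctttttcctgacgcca
Negr1: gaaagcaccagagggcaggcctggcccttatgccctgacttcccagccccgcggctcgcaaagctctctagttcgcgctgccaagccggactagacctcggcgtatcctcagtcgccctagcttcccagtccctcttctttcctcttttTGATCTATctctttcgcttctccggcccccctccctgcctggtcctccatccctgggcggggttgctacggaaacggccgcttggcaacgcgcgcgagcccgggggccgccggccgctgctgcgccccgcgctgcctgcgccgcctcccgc
Eya4: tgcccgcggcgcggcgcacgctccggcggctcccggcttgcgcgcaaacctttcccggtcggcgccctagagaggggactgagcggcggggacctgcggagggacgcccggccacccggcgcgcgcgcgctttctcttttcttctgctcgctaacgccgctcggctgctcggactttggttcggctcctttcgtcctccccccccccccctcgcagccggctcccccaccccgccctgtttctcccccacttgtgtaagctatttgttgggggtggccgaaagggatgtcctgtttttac
The *Atp2b4* window held 1 TAAT and no TGATNNAT, the *Negr1* window no TAAT and 1 TGATNNAT, and the *Eya4* window neither. Of 32851 promoters in the table, 58.0% held TAAT and 8.85% held TGATNNAT on either strand.

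Hox genes were described as a list of 39, of which 28 were in the matrix and 8 were abundant enough to test. None was called in either comparison, and the list's median log2 fold change was 0.01 with 9 libraries (all genes -0.12). With 7 the median was -0.23 (all genes -0.02), but it includes *Hoxc5* and is not read, for the reason given below. *Hoxd11* was at 36.8, 28.6 and 14.2 CPM in the lumbar/sacral replicates and at 0 in all cervical and thoracic libraries, so it marked the lumbar/sacral label without exception. *Hoxc5* had a log2 fold change of -0.25 ± 0.64 with 9 libraries. Its difference with 7 is not read, because its values decided which 2 libraries were left out. *Hoxc6*, *Hoxc8* and *Hoxc9* were not in the matrix under these names and so were not analysed here.

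Of 21 limb motor column and pool genes, 13 were tested and 0 called, and their median log2 fold change was 0.22 with 9 libraries and 0.04 with 7. *Cpne4*, a calcium-dependent membrane-binding protein (chr9:104547286-105034544, + strand), was at 109 and 89.4 CPM in cervical replicates 1 and 3, at 64.4, 16.7 and 53.9 CPM in the lumbar/sacral replicates, and at 11.4 and 8.80 CPM in thoracic replicates 1 and 3. It was the 1 member with all 5 limb libraries above both thoracic ones, while 3 (*Epha4*, *Etv5* and *Isl1*) had them below (3.52% and 4.78% of all genes). It was at a log2 fold change of 2.05 ± 0.54 (limma adjusted p = 0.994). The library labelled cervical replicate 2 was at 14.7 CPM and the one labelled thoracic replicate 2 at 54.3 CPM, and with 9 libraries the fold change was 1.12 ± 0.62.

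Among the other pool genes, *Sema3e*, a secreted guidance cue of limb pools, was at 11.9 to 63.8 CPM in limb libraries (median 31.3) and at 13.3, 9.27 and 4.40 CPM in thoracic ones. *Pbx3*, a Hox cofactor, was at 51.1 to 404 CPM (median 110) and at 58.2, 84.8 and 26.4 CPM. Both overlapped between groups, and for *Pbx3* the top value was again in the library labelled cervical replicate 2. *Isl1*, a LIM homeobox factor, was at 25.5 to 68.3 CPM (median 54.7) and at 70.6, 72.9 and 79.2 CPM, below thoracic without overlap, with a log2 fold change of -0.51 ± 0.27. *Epha4*, the ephrin receptor of dorsal limb axons, was at 32.4 to 109 CPM (median 92.0) against 146, 92.7 and 145 CPM, with the thoracic replicate 2 label again inside the limb range.

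Of 8 trunk motor column genes 7 were tested with 9 libraries and 6 with 7, with medians of -0.09 and -0.23. The phrenic list had 8 of 10 genes tested in both, with medians of -0.04 and -0.20. *Hoxc5*, whose values decided which libraries were left out, is among the 8, so the median with 7 libraries is not read. *Negr1* was the 1 member of the phrenic list higher without overlap in both, and *Isl1* was lower without overlap in both. Of the trunk list *Ebf2* was higher without overlap with 9 libraries and *Etv1* lower with 7. *Ebf2* was found in 1, 2 and 0 nuclei of the thoracic replicates and in 2 to 12 nuclei of most limb libraries. In the library labelled cervical replicate 2 it was found in 54 of 71. A value of 0 in thoracic replicate 3 allows up to 13.2 CPM, and the lack of overlap of *Ebf2* is not read as support. Over all genes the shares higher and lower without overlap were 0.626% and 1.47% with 9 libraries and 3.52% and 4.78% with 7. No gene of either list was called.

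The 6 genes that the study had named for alpha MN subtypes were picked by it on these same libraries, so their direction is not independent evidence. All 6 were tested, 5 were higher and 1 lower in both comparisons, and 0 were called. The median log2 fold change was 0.63 with 9 libraries and 1.34 with 7. *Grm5*, a metabotropic glutamate receptor, was at 43.3 to 1078 CPM in limb libraries (median 123) and at 49.6, 22.5 and 0 CPM in thoracic ones. The groups overlapped through lumbar/sacral replicate 3, the library labelled cervical replicate 2 stood far above the rest, and the log2 fold change was 2.97 ± 0.86 with 9 libraries and 2.66 ± 0.79 with 7. *Cpne4* and *Piezo2* were the members with no overlap in the 7 libraries, both higher (all genes 3.52%).

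Of 33 cadherins and protocadherins 22 were tested with 9 libraries, 14 higher and 8 lower, with a median of 0.10. *Cdh8* was at 38.2 to 387 CPM in limb libraries (median 98.2) and at 36.2, 29.1 and 0 CPM in thoracic ones, which left 38.2 against 36.2 CPM at the closest, and its log2 fold change was 2.42 ± 0.74. The medians were -0.07 for 11 of 21 Eph receptors and ephrins, 0.00 for 23 of 31 semaphorins, plexins and neuropilins, and 0.00 for 13 of 17 netrin, Slit and Robo genes. With 7 libraries the medians of these 4 lists were 0.06, -0.16, 0.17 and 0.00. *Slit1*, a repellent of growing axons, was at 4.97 to 58.9 CPM (median 16.3) against 3.81, 5.30 and 0 CPM. Its limb libraries overlapped the thoracic ones by 1 library, lumbar/sacral replicate 3. All thoracic values of *Slit1* lie below the 10 CPM of the filter, so it was tested through its limb values alone. The 13.2 CPM that a value of 0 in thoracic replicate 3 allows reaches into its limb range. With 7 libraries *Slit1* was the 1 netrin, Slit or Robo gene higher without overlap, which is not read as support. *Slit2*, *Ntng1* and *Unc5a* were lower without overlap with these 7 (all genes 3.52% higher and 4.78% lower). Of the cadherins *Cdh8*, *Cdh11* and *Cdh23* were then higher without overlap, and of the Eph genes *Epha4* and *Ephb6* lower.

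Trophic factor receptors, 11 of 19 tested, had medians of -0.05 and 0.07. *Alk*, a receptor tyrosine kinase, was at 18.4 to 115 CPM in limb libraries (median 21.6) and at 14.3, 11.9 and 4.40 CPM in thoracic ones, above without overlap, at a log2 fold change of 1.40 ± 0.53. With 7 libraries *Alk* was again higher without overlap and *Gfra2* was lower. Over all genes the shares higher and lower without overlap were 0.626% and 1.47% with 9 libraries and 3.52% and 4.78% with 7. The 12 of 14 fast and slow alpha MN genes tested had medians of -0.15 with 9 and, for 11 tested, -0.18 with 7 libraries. *Esrrg*, an orphan nuclear receptor known from gamma and slow MNs, was at 699 to 1075 CPM (median 901) against 1208, 1232 and 1219 CPM. The 3 thoracic libraries were nearly alike and above all limb libraries, and the log2 fold change was -0.46 ± 0.18 (limma adjusted p = 0.994).

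Among ion channels, 48 of 84 potassium channel genes were tested, 27 higher and 21 lower, with medians of 0.02 and 0.04. Without overlap 1 was higher (*Kcnt2*) and 3 were lower (*Kcnk2*, *Kcnmb4* and *Kcnab3*) with 9 libraries, and 4 were higher and 6 lower with 7 (all genes 0.626% and 1.47% with 9 libraries, 3.52% and 4.78% with 7). *Kcnip4*, a modulator of A-type potassium channels, was at 2759 and 3603 CPM in cervical replicates 1 and 3, at 7168, 4992 and 5628 CPM in the lumbar/sacral replicates and at 2367 and 1056 CPM in thoracic replicates 1 and 3. Limb libraries lay above these thoracic libraries, with the lumbar/sacral ones highest, and the log2 fold change was 1.53 ± 0.41. The libraries labelled cervical and thoracic replicate 2 were at 1879 and 1707 CPM, so with 9 libraries the groups overlapped (1.28 ± 0.40). In gamma MNs it was also lower in thoracic replicates 1 and 3 (445 and 452 CPM) than in the same limb libraries (1382 to 3180 CPM). *Kcnt2*, a sodium-activated potassium channel, was at 76.3 to 257 CPM in limb libraries (median 111) and at 70.6, 39.7 and 17.6 CPM in thoracic ones, without overlap, at 1.60 ± 0.40. The 29 of 43 calcium, sodium and HCN channel genes tested had medians of 0.00 and -0.03, and none lay apart in the 9 libraries.

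Receptor lists were as even. The 24 of 25 glutamate receptor genes tested had medians of 0.04 and 0.05, with *Grik1* higher without overlap in both comparisons and *Gria1*, an AMPA receptor subunit, in the 7 libraries. The 15 of 26 GABA and glycine receptor genes tested had medians of 0.08 and 0.03. *Gabrg3*, a GABA receptor subunit, was at 50.4 to 253 CPM in limb libraries and at 32.4, 196 and 44.0 CPM in thoracic ones, where the high value is that of the library labelled thoracic replicate 2. With 3 of 17 acetylcholine receptor genes tested the medians were 0.06 and 0.07. The 9 of 16 retinoic acid pathway genes in the matrix that were tested had medians of -0.15 and -0.19, and 3 of 14 immediate early genes a median of -0.53 with 9 libraries and, for 2 tested, -0.27 with 7. None of these genes was called.

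Transcripts that report on RNA quality moved more. Of 15 genes in this list (13 mitochondrial genes, *Malat1* and *Meg3*) 10 were tested, 9 were higher in limb libraries with 9 libraries and 10 with 7, and the median log2 fold changes were 1.33 and 1.24, against -0.12 and -0.02 for all genes. None was called. *mt-Cytb*, a mitochondrial cytochrome, was at 19.1 to 113 CPM in limb libraries (median 27.6) and at 8.58, 30.5 and 0 CPM in the thoracic ones. *mt-Atp6* was at 23.8 to 99.1 CPM (median 31.1) and at 16.2, 19.9 and 0 CPM, without overlap. Of the 10 tested, 2 were higher without overlap with 9 libraries (all genes 0.626%) and 6 with 7, *mt-Cytb* among them (all genes 3.52%). With 7 libraries both thoracic values of *mt-Cytb* lie below the 10 CPM of the filter, so it was tested through its limb values alone. Its lack of overlap is not read as support. A value of 0 in thoracic replicate 3 allows up to 13.2 CPM, which limits the other low genes of this list too. In both comparisons 0 were lower without overlap. Mitochondrial transcripts in sorted nuclei come from outside the nucleus, and their part in the other differences was not tested.

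The list's summed level was nearly all *Malat1* and *Meg3*, 2 nuclear noncoding RNAs, and was lowest in replicate 1 and highest in replicate 2 of every region. It was 39626, 133578 and 46274 CPM in the cervical, 47704, 140593 and 90224 CPM in the lumbar/sacral and 36854, 119166 and 101802 CPM in the thoracic replicates. The mitochondrial genes did not share this order, with 169, 779 and 725 CPM in the cervical, 225, 160 and 204 CPM in the lumbar/sacral and 91.5, 156 and 61.6 CPM in the thoracic replicates.

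To ask whether these differences were those of alpha MNs or of all skeletal MNs of a level, the difference of log2(CPM + 5) between alpha and gamma MNs was taken within each library and compared between limb and thoracic libraries. Limma called 0 of 10793 genes (0%), with 376 at an unadjusted p under 0.05 and a lowest adjusted p of 0.958. *Necab1* had the lowest p on the higher side, at 2.19 ± 0.45. It was at 2.08 to 11.7 CPM in gamma MNs, with limb (3.22 to 11.7 CPM) and thoracic (4.39, 5.11 and 2.08 CPM) libraries overlapping. When the library labelled cervical replicate 2 was left out, it was the 1 gene called, at a log2 difference of 1.87 ± 0.22 and limma adjusted p = 0.0281. This call rests on thoracic alpha MN sums of 1, 1 and 0 corrected counts, on a gene that passed the filter through its limb values, and the gamma MN levels lie below the 13.2 CPM that thoracic replicate 3 allows. Without both doubted libraries limma called 0 genes, with 908 at an unadjusted p under 0.05 and a lowest adjusted p of 0.165.

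*Mef2c* led the lower side at -1.17 ± 0.25. In gamma MNs it was at 24.7 to 49.8 CPM in limb and 19.3, 35.1 and 31.2 CPM in thoracic libraries, without the order seen in alpha MNs. *Atp2b4* was at 86.0 to 182 CPM in gamma MNs of limb libraries and 148, 103 and 146 CPM in those of thoracic libraries, so its level in thoracic alpha MNs (4.40 to 10.6 CPM) was far below that in gamma MNs of the same libraries.

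Against Type 3 MNs (S1), the remaining skeletal class, limma called 0 of 10824 genes (0%), with 358 at an unadjusted p under 0.05 and a lowest adjusted p of 0.928. That value was reached by *Zhx2*, a zinc finger and homeobox repressor, at a log2 difference of -1.49 ± 0.25. In alpha MNs it was at 5.89 to 10.0 CPM in limb libraries (median 9.38) and at 17.2, 18.5 and 30.8 CPM in thoracic ones, and in Type 3 MNs at 25.2 to 42.5 CPM and 22.4, 17.4 and 25.5 CPM. *Arhgef28*, which encodes a protein that binds neurofilament mRNA, and *Nrip1*, a nuclear receptor corepressor, led the higher side at 1.10 ± 0.23 and 1.27 ± 0.28. *Nrip1* was at 73.1 to 101 CPM in limb alpha MNs (median 83.1) and at 59.1, 42.4 and 13.2 CPM in thoracic ones, with no overlap. *Bdnf*, a neurotrophin, was at 1.96 to 12.7 CPM against 27.6, 14.6 and 13.2 CPM, and its log2 difference was -1.23 ± 0.34 (adjusted p = 0.995). Without both doubted libraries limma called 0 genes, with 873 at an unadjusted p under 0.05.

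The cervical and the lumbar/sacral libraries were also each set against the thoracic ones, which both comparisons share. With 7 libraries the log2 fold changes of cervical and lumbar/sacral libraries were 2.07 and 2.48 for *Necab1*, 1.90 and 2.46 for *Atp2b4*, and 2.26 and 2.24 for *Grik1*. They were 1.93 and 1.42 for *Negr1*, 2.78 and 1.57 for *Cpne4*, and 0.99 and 1.89 for *Kcnip4*. For *Eya4* they were -1.02 and -0.91. The lowest limma adjusted p among these values was 0.0977, for *Atp2b4* in lumbar/sacral libraries, and with 9 libraries *Necab1* was at 2.58 and 2.40, and *Atp2b4* at 1.17 and 2.25. The difference between cervical and lumbar/sacral libraries was not tested.

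The share of alpha MNs among skeletal MN nuclei (S1, S2 and S3) was 40.3%, 42.8% and 27.9% in the cervical, 19.6%, 9.63% and 33.1% in the lumbar/sacral and 34.6%, 11.5% and 11.4% in the thoracic replicates. Shares varied as widely within a region as between regions, and the groups overlapped. The mean was 28.9% ± 12.6 (SD, n = 6) in limb and 19.2% ± 13.4 (SD, n = 3) in thoracic libraries, a difference of 9.72 points (exact two-sided permutation test over 84 groupings, p = 0.333). With all cholinergic nuclei as the whole it was 9.66% against 4.04% (exact permutation p = 0.0952). Without the 2 doubted libraries the difference was 3.12 points (exact permutation test over 21 groupings, p = 0.857), and without thoracic replicate 1 it was 17.4 points (exact permutation p = 0.214). When nuclei were counted only with a corrected count of *Tns1* and of *Stk32a* or *Sv2b*, which kept 1114 of 1285 and 19 of 71 in the library labelled cervical replicate 2, the difference was 3.20 points (exact permutation p = 0.762). The sort and dissection of each library can also set these shares.

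**Figure D5:**
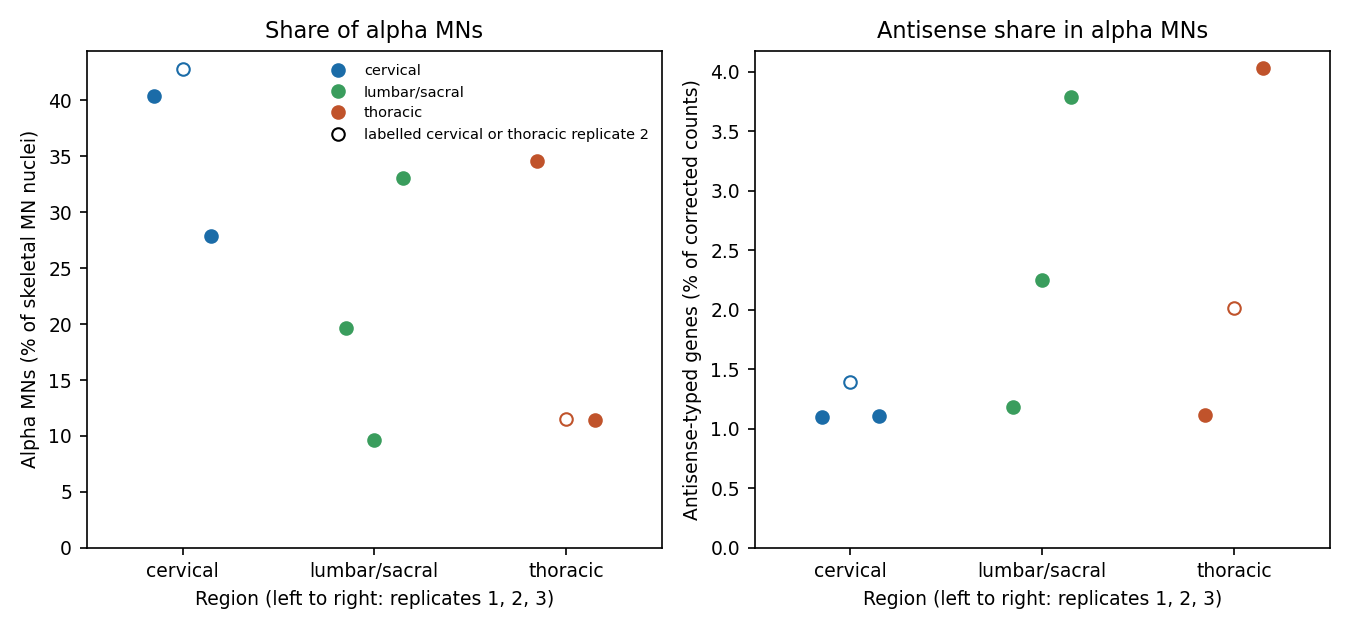
Left, alpha MNs as a percentage of skeletal MN nuclei by region, 1 point a library. Right, the percentage of corrected counts of alpha MNs in genes typed as antisense, which is above 2% in 4 libraries from both groups.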

How the data were processed

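Per the labels and the study's methods, reads were mapped to mm10 by the authors (Cell Ranger 3.1.0) and nuclei normalized with SCTransform in Seurat; the deposited matrix holds whole-number corrected values, treated here as a score rather than raw counts. Nuclei, clusters and regions come from the deposited annotation. Corrected counts of S2 nuclei were summed per library, scaled to CPM and tested with limma 3.58.1 (R 4.3.3, trend) on log2(CPM + 5), keeping genes that reached 10 CPM in 3 or more of the library sums, two-sided, with Benjamini-Hochberg adjustment. Fold changes on this scale understate those of low genes. Tables and figures used Python 3.11.15, numpy 2.4.6, pandas 2.3.3, scipy 1.17.1 and matplotlib 3.10.9, and 21087 of 21457 features were matched by name to GENCODE positions. The limma step was tested on simulated data.

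Genes for naming were drawn from, in each direction of each comparison, the called genes or, with fewer than 6 called, the 6 of lowest p, with 3 members of lowest p from each list in the comparisons of 9 and 7 libraries, the markers and the level Hox genes; only some of these are described, and that choice, like others named, was made after their values were seen. The members and lists were chosen with earlier results of these data known. Same-numbered replicates come from the same pool of 4 mice and so pair; correlations of their deviations from region means were 0.333, 0.372 and 0.700 for replicate 1, 0.326, 0.256 and 0.342 for replicate 2 and 0.0630, -0.0835 and 0.487 for replicate 3. Alternatives covered scaling, pseudocount, filter, region terms, pairing, weights, thinning and leaving out libraries.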

Additional observations from a re-analysis of the deposited data

Results flagged for a closer look

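Among 64 measures over the 6 limb libraries (the share of alpha MNs, median corrected total, antisense share, and the CPM of markers, leading genes and list genes), 12 had 1 library far from the other 5, and in 11 of them it was the library labelled cervical replicate 2. Chance gives such a gap in about 1 group in 20. The library labelled cervical replicate 2 was the lowest for *Tns1* (80.5 CPM) and *Plch1* (82.4 CPM). It was the highest for *Grm5* (1078 CPM), *Ntm* (685 CPM), *Pbx3* (404 CPM), *Cdh8* (387 CPM) and *Grik1* (290 CPM). The same held for *Zeb2* (133 CPM), *Mpped2* (88.3 CPM), *Chrm3* (67.7 CPM) and *Slit1* (58.9 CPM). For *Hoxa7* lumbar/sacral replicate 2 was the highest (31.0 CPM). The set of measures was widened from 32 after a first run had flagged 4. Groups of 3 libraries were not tested in this way, and the cause was not tested.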

How the results depend on the processing

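The comparison of 9 libraries called 0 genes in limma under every alternative run, with 58 to 1007 genes at an unadjusted p under 0.05: 58 without thoracic replicate 3, 74 with weights by the number of nuclei, 415 without thoracic replicate 1, 629 with no filter and 1007 with array weights, against 251. The comparison of 7 libraries called 0 to 4, the 4 with the antisense share as a covariate, an alternative chosen after seeing the data, as were the fits without antisense genes and on marker-positive nuclei. Its counts at an unadjusted p under 0.05 ran from 57 (weights by nuclei) to 1244 (without thoracic replicate 1, which leaves 1 thoracic library assumed to vary like the others), against 382. Alpha minus gamma MNs called 1 gene without cervical replicate 2 and 0 otherwise (leave-one-out range 0 to 1), and alpha minus Type 3 MNs 0 in every case. The cause of these shifts was not tested.

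The replicate block changed no call: 0 genes were called with it in the comparisons of 9 and 7 libraries and in those with gamma and Type 3 MNs, and for the share of alpha MNs the paired difference was 9.72 points (exact permutation p = 0.370 over 27 arrangements). Leaving out 1 library moved that difference between 5.84 and 17.4 points. The 12 leading genes of each comparison kept their sign under all alternatives run. Of the other named genes, 24 of 110 with 9 libraries and 23 of 103 with 7 changed sign in at least 1.

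Thoracic replicate 3, with 26 nuclei, limits the depth for low genes, and 2 thoracic libraries limit the comparison of 7. A p above the threshold does not show that levels were the same.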
